A study of Mus musculus with 102 samples.

Results

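The comparison set the brains of 7 male C57BL/6J mice aged 20 months against those of 7 aged 3 months, by sequencing of brain RNA. All animals were labelled wild type, and the labels name no treatment. The 14 libraries were chosen by their age labels, out of 45 brain libraries of 6 ages and 102 samples in the whole series. Genes were kept if their value was 10 or more in at least 5 of the brain libraries, which left 15566 of the 51810 gene symbols listed. Values are normalised read counts, meaning reads per gene divided by 1 size factor per library. A gene passed, or was called, where its Benjamini-Hochberg adjusted p over all kept genes was under 0.05 in limma, fitted to log2(value + 1) with 1 mean per age. Log2 differences are 20 minus 3 months on that scale, which understates the change of genes with few reads. Nothing in the labels says how the animals were housed or which brain regions a sample held.

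Ageing of the mouse brain is known less for loss of nerve cells than for altered glia. Microglia, the brain's resident macrophages, take up myelin debris and make complement, a cascade of blood proteins that tags surfaces for removal. Astrocytes, which feed neurons and clear transmitter, can turn reactive and then make protease inhibitors, class I histocompatibility molecules and intermediate filaments. Neurons that have just fired switch on immediate early genes, whose transcripts come and go quickly, so their level is known to depend on what the animal did shortly before.

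The 20-month libraries held 6118328 to 9682731 reads in genes and the 3-month libraries 4212565 to 9374535. Replicate 1 at 3 months had the fewest reads and stood apart, with a correlation of 0.970 to the median of the other brain libraries, where the other 13 of these libraries ran from 0.985 to 0.993. Markers of the cells a brain should hold were read in every library. The neuronal marker Snap25 spanned 21311 to 25671 (median 24049) in the 20-month brains, against 21317 to 36704 (median 25721) in the 3-month brains, the oligodendrocyte marker Mbp 11299 to 14582 (median 13617) in the 20-month brains, against 10798 to 14769 (median 13125) in the 3-month brains, and the astrocyte marker Slc1a2 17174 to 23375 (median 22096) in the 20-month brains, against 17595 to 24114 (median 19525) in the 3-month brains. Cx3cr1 of microglia spanned 259.9 to 376 (median 314) in the 20-month brains, against 239 to 414 (median 316) in the 3-month brains. None of these 4 passed (log2 -0.15, 0.08, 0.07 and -0.04; limma adjusted p = 0.713, 0.829, 0.839 and 0.935). Gfap of astrocytes, P2ry12 of microglia and the class I light chain B2m, which nearly every cell makes, are listed at 0 in all 45 brain libraries, so these 3 give no information. In whole tissue, fewer cells of a type and less RNA per cell cannot be told apart.

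Of the 15566 genes 27 passed, or 0.173%, with 25 higher at 20 months (0.161%) and 2 lower (0.0128%). At unadjusted p under 0.05 there were 1460 genes, 844 higher (5.42%) and 616 lower (3.96%). The values of all 7 old brains lay above those of all 7 young ones for 36 genes (0.231%) and below them for 16 (0.103%). The median log2 difference of all tested genes was 0.00055, and 50.2% were positive. 22 of the 27 carry established gene names, 20 higher and 2 lower, and in 14 of the 22 the 2 age groups did not overlap. By gene list, the higher genes held 3 of activated microglia (Lyz2, Gpnmb and Lgals3bp), 3 of reactive astrocytes (A2m, Vim and H2-D1, the last also the 1 class I gene) and 1 each of the complement (C4b), interferon-induced (Ifitm3), endothelial (Vwf), myelin (Apod), sphingolipid (Acer2), astrocyte homeostasis (Etnppl) and long RNA (Neat1) lists. Abca8a, Hapln2, Cxcl12, Podxl, Flnc, Ddx60 and Ahnak were on no list. Nrep and Dio2 were the 2 that fell. The lists and their members were chosen with earlier results of these data known, so the counts by list are descriptive. List counts at unadjusted p under 0.05, given below, stand against 5.42% higher and 3.96% lower of all genes.

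**Figure D1:**
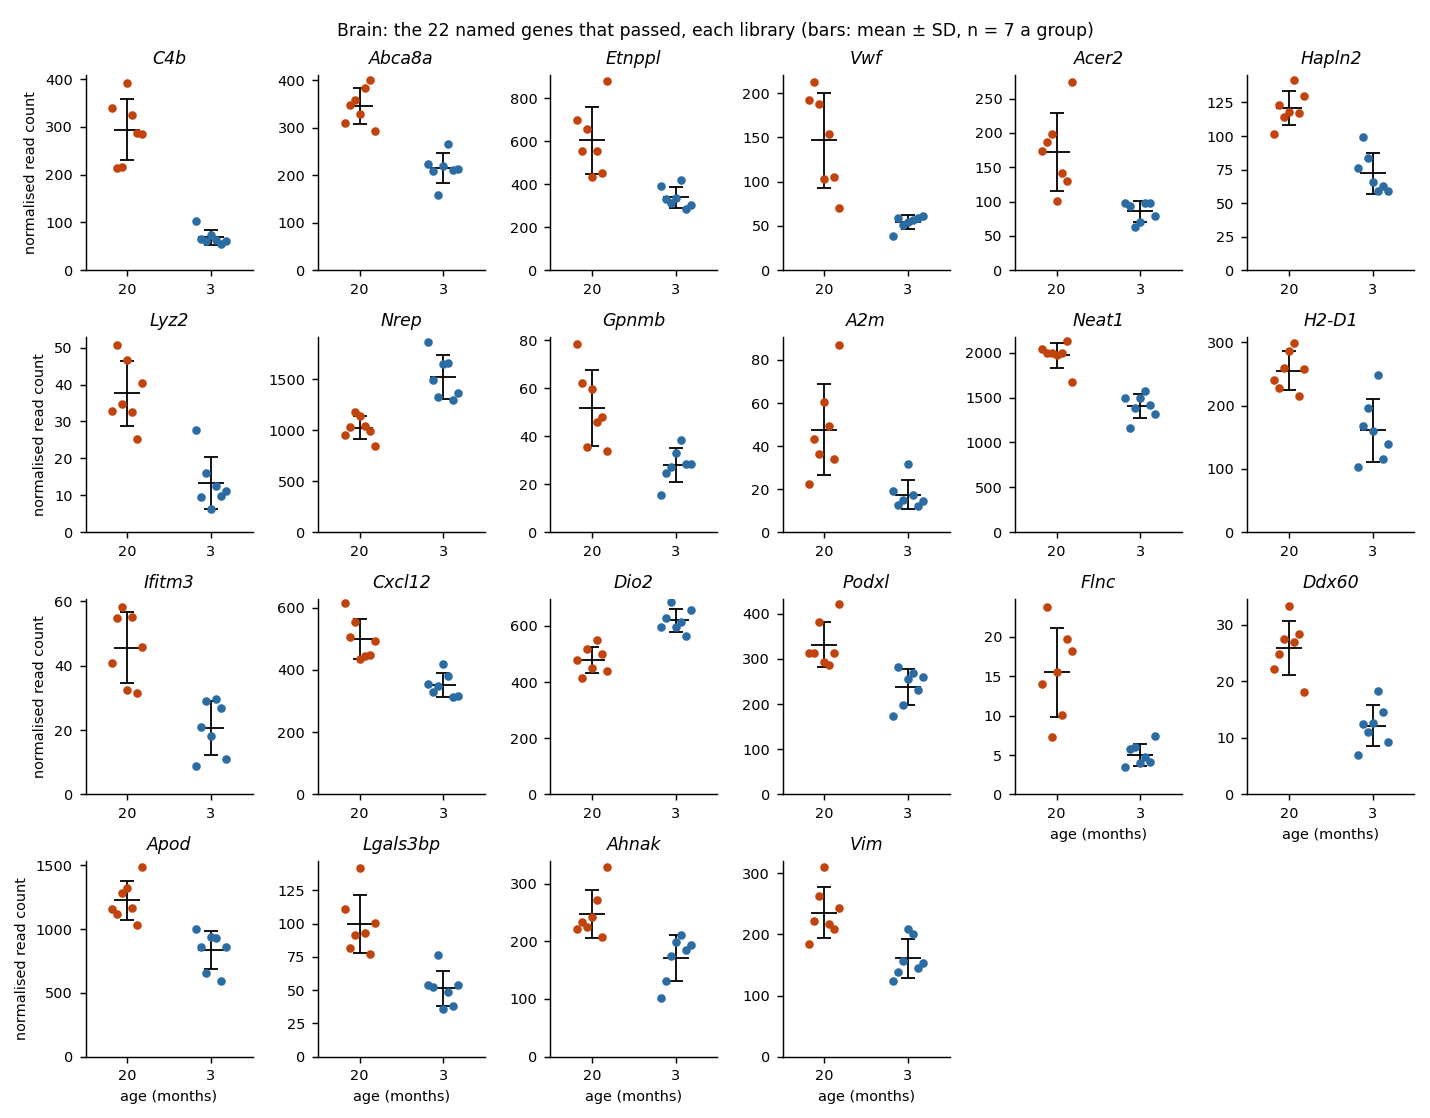
Each panel plots 1 of the 22 named genes that passed, with the normalised read count of every library on an axis from 0, 20 months on the left and 3 months on the right. Points are libraries, and bars give the mean and SD of 7. All 7 old brains lie above the young ones for C4b, Abca8a and Neat1, and below them for Nrep and Dio2, while Gpnmb and H2-D1 overlap.

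Among complement genes C4b, the fourth component, whose cleaved fragment binds covalently to surfaces, spanned 214 to 393 (median 288) in the 20-month brains, against 56.0 to 102 (median 64.2) in the 3-month brains. Every old value lay far above the highest young one. C4b rose (log2 2.07, SE 0.20, limma adjusted p = 1.14e-09), and it kept its call in all 14 fits that left out 1 library. It lies at chromosome 17 from 34728380 to 34743882 on the minus strand (GRCm38, GENCODE M21). Its near copy C4a held few reads, 2.25 to 9.61 (median 4.86) in the 20-month brains, against 0.811 to 17.4 (median 2.87) in the 3-month brains, and reads may be assigned between the copies. Of 15 tested complement genes 1 was called and 9 had an unadjusted p under 0.05 as higher and 0 as lower, with a median log2 difference of 0.48. C3ar1, the receptor of the C3a fragment, spanned 26.7 to 38.7 (median 34.0) in the 20-month brains, against 7.38 to 33.5 (median 20.3) in the 3-month brains and did not pass (log2 0.87, SE 0.22, limma adjusted p = 0.0879). Itgb2, the beta chain of the complement receptors CR3 and CR4, spanned 26.7 to 49.7 (median 39.2) in the 20-month brains, against 17.3 to 27.1 (median 22.6) in the 3-month brains and did not pass either (log2 0.77, SE 0.21, limma adjusted p = 0.119).

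3 genes of activated microglia rose. Lyz2, a lysozyme of macrophages and microglia, spanned 25.2 to 50.7 (median 34.8) in the 20-month brains, against 6.31 to 27.8 (median 11.1) in the 3-month brains, and 6 of the 7 old brains exceeded every young one (log2 1.52, SE 0.29, limma adjusted p = 0.00685). The highest young value came from replicate 1, the library that stood apart. Lyz1, its near copy, reached no more than 3.70 at 20 months and 2.43 at 3 months. Gpnmb, a membrane glycoprotein of phagocytes loaded with lipid, spanned 34.0 to 78.4 (median 48.0) in the 20-month brains, against 15.6 to 38.3 (median 28.4) in the 3-month brains (log2 0.86, SE 0.17, limma adjusted p = 0.00862). Lgals3bp, a secreted glycoprotein that binds galectins, spanned 77.1 to 142 (median 93.3) in the 20-month brains, against 35.5 to 76.4 (median 52.7) in the 3-month brains with no overlap (log2 0.96, SE 0.22, limma adjusted p = 0.0468), but it kept its call in only 3 of the 14 fits without 1 library. These were the 3 called genes of 18 tested on the activated list, where 8 had an unadjusted p under 0.05 as higher and 0 as lower (median log2 0.22). The list of homeostatic microglia, the genes of their resting state, stayed without a call: 0 of 13 passed, 1 had an unadjusted p under 0.05 (Mertk, a receptor for engulfing dead cells, log2 0.37, SE 0.11, limma adjusted p = 0.184), and the median was 0.05. 3 of that list's 16 genes, P2ry12, P2ry13 and Gpr34, are listed at 0 throughout. Itgax, the CD11c integrin of activated microglia, stood next to the threshold with 4.05 to 12.6 (median 8.28) in the 20-month brains, against 0 to 4.06 (median 1.92) in the 3-month brains (log2 2.09, SE 0.49, limma adjusted p = 0.0508); 6 of 7 old brains lay above every young one, where 3 of the 7 had no read.

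On the reactive astrocyte list 3 of 14 tested genes were called, all higher, 8 had an unadjusted p under 0.05 as higher and 0 as lower, and the median log2 difference was 0.61. A2m, alpha-2-macroglobulin, which traps proteases, spanned 22.2 to 87.0 (median 43.5) in the 20-month brains, against 12.2 to 31.5 (median 15.1) in the 3-month brains (log2 1.35, SE 0.26, limma adjusted p = 0.00862). Its 20-month maximum came from replicate 7. Vim, the intermediate filament vimentin, which endothelial cells also make, spanned 184 to 311 (median 223) in the 20-month brains, against 123 to 208 (median 154) in the 3-month brains (log2 0.55, SE 0.13, limma adjusted p = 0.0487). Cp, ceruloplasmin, a copper-carrying ferroxidase, spanned 87.7 to 185 (median 122) in the 20-month brains, against 72.8 to 103 (median 74.4) in the 3-month brains and lay just past the threshold (log2 0.67, SE 0.16, limma adjusted p = 0.0508). The list of astrocyte metabolism and homeostasis had a median of 0.03 over 20 tested genes, with 1 called higher and 1 lower. Etnppl, which breaks down phosphoethanolamine and is made largely by astrocytes, rose, spanning 433 to 881 (median 556) in the 20-month brains, against 283 to 419 (median 331) in the 3-month brains (log2 0.80, SE 0.12, limma adjusted p = 0.000214). Its old brains did not overlap the young ones. Dio2, the deiodinase that turns thyroxine into active thyroid hormone, fell, spanning 415 to 548 (median 480.0) in the 20-month brains, against 566 to 683 (median 615) in the 3-month brains, again with no overlap (log2 -0.38, SE 0.08, limma adjusted p = 0.0315). Gja1, the gap junction protein connexin 43, spanned 1597 to 1925 (median 1689.8) in the 20-month brains, against 1602 to 2229.8 (median 1966) in the 3-month brains and was not called (log2 -0.17, SE 0.08, limma adjusted p = 0.519). Of 14 tested genes of thyroid hormone transport and response, Dio2 was the 1 called, and 3 in all were lower and 1 higher at unadjusted p under 0.05.

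Class I histocompatibility genes, which display peptides to T cells, had 1 of 11 tested called, 7 higher and 0 lower at unadjusted p under 0.05, and a median log2 difference of 0.58. H2-D1, a classical heavy chain, spanned 215 to 299 (median 258) in the 20-month brains, against 102 to 248 (median 160.1) in the 3-month brains (log2 0.71, SE 0.15, limma adjusted p = 0.014), with 4 of 7 old brains above every young one. H2-K1, the other classical heavy chain, spanned 98.4 to 143 (median 127) in the 20-month brains, against 58.4 to 108 (median 81.4) in the 3-month brains (log2 0.58, SE 0.14, limma adjusted p = 0.0738). H2-Q4, of the nonclassical Q region, spanned 11.8 to 25.8 (median 17.0) in the 20-month brains, against 3.25 to 13.4 (median 9.04) in the 3-month brains (log2 1.06, SE 0.29, limma adjusted p = 0.117). Neither of the last 2 passed. Heavy chain genes are near copies of each other, so reads may be exchanged between them. Class II genes had 0 of 7 called and 3 higher at unadjusted p under 0.05 (median 0.35). Cd74, the invariant chain, spanned 12.7 to 32.5 (median 20.2) in the 20-month brains, against 6.95 to 17.1 (median 11.04) in the 3-month brains (log2 0.91, SE 0.30, limma adjusted p = 0.263).

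Interferon-induced genes had 1 of 22 tested called, 6 higher and 0 lower at unadjusted p under 0.05, and a median of 0.33. Ifitm3, a membrane protein that blocks the entry of enveloped viruses, spanned 31.5 to 58.3 (median 45.9) in the 20-month brains, against 8.68 to 29.7 (median 21.1) in the 3-month brains with no overlap (log2 1.18, SE 0.25, limma adjusted p = 0.0158). Ddx60, an antiviral helicase that lies outside the list, spanned 18.2 to 33.3 (median 26.97) in the 20-month brains, against 6.95 to 18.2 (median 12.5) in the 3-month brains, with 6 of 7 old brains above all young ones (log2 1.06, SE 0.24, limma adjusted p = 0.0401). Oas1a, a synthase of the 2-5A signal that activates RNase L, spanned 4.05 to 13.5 (median 8.28) in the 20-month brains, against 1.00 to 4.79 (median 1.92) in the 3-month brains and did not pass (log2 1.40, SE 0.45, limma adjusted p = 0.239). On this list the young replicates 1 and 5 lay at 0.35 and 0.46 above the 3-month mean by the median deviation of its members, inside the 20-month range of 0.03 to 0.68.

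Promoters are shown for these 3 genes because interferon acts on such genes through a short element, the ISRE. The search used the letters GAAANNGAAA on both strands of the RefSeq promoter windows (GRCm38.p6), from 250 bases before to 50 after each start. It matched 3.44% of all 32851 windows. Of the 22 named called genes 16 had a window, and Ifitm3 and Ddx60 matched (2 of 18 windows, 11.1%). Of the 22 tested interferon-induced genes 17 had one and 14 matched (15 of 20 windows, 75%). Capitals mark the matches in Ifitm3 (chr7:141010695-141010994, minus strand), Ddx60 (chr8:61927837-61928136, plus strand) and Oas1a (chr5:120907476-120907775, minus strand), where the Oas1a matches overlap. A match is a description of letters and not of binding.
Ifitm3: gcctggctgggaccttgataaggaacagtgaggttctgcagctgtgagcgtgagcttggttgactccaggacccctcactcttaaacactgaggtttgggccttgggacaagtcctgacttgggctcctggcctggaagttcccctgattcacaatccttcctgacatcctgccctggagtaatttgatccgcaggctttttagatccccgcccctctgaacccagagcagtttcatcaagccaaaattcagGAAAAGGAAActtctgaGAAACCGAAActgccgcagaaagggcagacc
Ddx60: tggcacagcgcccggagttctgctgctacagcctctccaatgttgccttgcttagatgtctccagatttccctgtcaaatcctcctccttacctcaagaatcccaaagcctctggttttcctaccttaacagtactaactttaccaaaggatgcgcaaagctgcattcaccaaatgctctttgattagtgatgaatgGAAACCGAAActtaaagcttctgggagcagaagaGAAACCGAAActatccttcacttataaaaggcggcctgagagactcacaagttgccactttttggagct
Oas1a: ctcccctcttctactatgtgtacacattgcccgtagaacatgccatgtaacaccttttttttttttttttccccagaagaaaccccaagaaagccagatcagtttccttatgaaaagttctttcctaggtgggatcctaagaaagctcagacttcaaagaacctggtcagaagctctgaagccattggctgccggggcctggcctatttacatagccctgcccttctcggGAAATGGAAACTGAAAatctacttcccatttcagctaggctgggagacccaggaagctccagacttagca

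Vwf, on the endothelial list, rose. Cxcl12 and Podxl, which vessels and other cells make, and the cytoskeletal genes Flnc and Ahnak, all 4 on no list, rose too. Vwf, the von Willebrand factor of endothelium and platelets, spanned 70.4 to 212 (median 154) in the 20-month brains, against 38.2 to 61.8 (median 56.5) in the 3-month brains (log2 1.34, SE 0.21, limma adjusted p = 0.000237). Its spread was wide at 20 months, where replicates 1, 2 and 3 lay highest and replicate 7 lowest, yet the groups did not overlap. Cxcl12, the chemokine that binds CXCR4, spanned 436 to 614 (median 493) in the 20-month brains, against 312 to 419.6 (median 349) in the 3-month brains (log2 0.50, SE 0.11, limma adjusted p = 0.0185). Podxl, a sialomucin of the vessel lining, spanned 287 to 421 (median 313) in the 20-month brains, against 174 to 283 (median 255) in the 3-month brains (log2 0.48, SE 0.11, limma adjusted p = 0.035). In both Cxcl12 and Podxl the old and young brains did not overlap. Flnc, the actin crosslinker filamin C, had few reads and spanned 7.29 to 23.8 (median 15.5) in the 20-month brains, against 3.47 to 7.38 (median 4.79) in the 3-month brains (log2 1.40, SE 0.31, limma adjusted p = 0.036). Ahnak, a giant scaffold protein, spanned 207 to 328 (median 234) in the 20-month brains, against 101 to 211 (median 184) in the 3-month brains (log2 0.56, SE 0.13, limma adjusted p = 0.0487). In these 2 genes 6 of the 7 old brains lay above every young one. Of 19 tested endothelial genes 1 was called, 9 were higher and 0 lower at unadjusted p under 0.05, and the median was 0.20. Flt1, a receptor of vascular growth factor, spanned 729 to 950.5 (median 748) in the 20-month brains, against 545 to 769 (median 619.97) in the 3-month brains and did not pass (log2 0.32, SE 0.09, limma adjusted p = 0.146). The tight junction gene Cldn5 spanned 160.5 to 211 (median 179.7) in the 20-month brains, against 148 to 195 (median 178) in the 3-month brains (log2 0.10, SE 0.12, limma adjusted p = 0.837). Mural and fibroblast genes had 0 of 14 called and 2 higher at unadjusted p under 0.05 (median 0.21), and matrix genes 0 of 18 called, with 3 higher and 2 lower. Over all genes 5.42% were higher and 3.96% lower at that threshold. Fn1, fibronectin, spanned 176 to 293 (median 251) in the 20-month brains, against 114 to 228 (median 174) in the 3-month brains (log2 0.49, SE 0.18, limma adjusted p = 0.342), and Col3a1, a fibrillar collagen, 12.9 to 20.7 (median 16.5) in the 20-month brains, against 18.2 to 44.2 (median 21.1) in the 3-month brains (log2 -0.55, SE 0.22, limma adjusted p = 0.413).

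Abca8a, Acer2, Apod and Hapln2 rose and are described together for their known roles, not as a list fixed for testing. Abca8a, a lipid transporter of the ATP-binding cassette family, spanned 292 to 399 (median 348) in the 20-month brains, against 158 to 266 (median 213) in the 3-month brains with no overlap (log2 0.69, SE 0.11, limma adjusted p = 0.000214); it lies at chromosome 11 from 110025634 to 110095978 on the minus strand (GRCm38, GENCODE M21) and has a near copy, Abca8b. Acer2, a ceramidase of the Golgi, spanned 101 to 274 (median 173) in the 20-month brains, against 63.3 to 98.2 (median 93.9) in the 3-month brains (log2 0.96, SE 0.16, limma adjusted p = 0.00106). It was the 1 called of 23 tested sphingolipid genes, whose median was 0.01. Apod, a lipid-binding lipocalin of oligodendrocytes, spanned 1033 to 1491 (median 1168) in the 20-month brains, against 595 to 1002 (median 861) in the 3-month brains (log2 0.57, SE 0.13, limma adjusted p = 0.044), with every old brain above every young one. Hapln2, a link protein of the matrix at the nodes of Ranvier, spanned 102 to 142 (median 118) in the 20-month brains, against 59.0 to 99.7 (median 65.5) in the 3-month brains (log2 0.75, SE 0.14, limma adjusted p = 0.00347). It did not overlap either, and neither did Acer2. Of 19 tested myelin genes Apod was the 1 called, 3 were higher and 0 lower at unadjusted p under 0.05, and the median was 0.06. Mobp, a basic protein of compact myelin, did not pass, although its values, 1349 to 1562 (median 1431) in the 20-month brains, against 1086 to 1315.3 (median 1139.6) in the 3-month brains, did not overlap (log2 0.31, SE 0.10, limma adjusted p = 0.216). Precursor and newly formed oligodendrocyte genes had 0 of 14 called and a median of 0.05.

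Nrep, a protein of neuronal regeneration, fell, spanning 851 to 1178 (median 1029) in the 20-month brains, against 1294 to 1869 (median 1498) in the 3-month brains with no overlap (log2 -0.57, SE 0.11, limma adjusted p = 0.00746). It was the 1 called of 17 tested genes of newborn and growing neurons, of which 5 were lower and 0 higher at unadjusted p under 0.05 (median -0.19). Sox11, a transcription factor of immature neurons, spanned 184 to 311 (median 266) in the 20-month brains, against 261 to 427 (median 330.2) in the 3-month brains (log2 -0.33, SE 0.13, limma adjusted p = 0.373), and Gap43, of growth cones, 2811 to 3828 (median 3265) in the 20-month brains, against 3307 to 7108 (median 3827) in the 3-month brains (log2 -0.39, SE 0.16, limma adjusted p = 0.395). Neither passed. Proliferation genes had 0 of 13 called, and 0 in each direction at unadjusted p under 0.05. The long noncoding RNA Neat1, the scaffold of nuclear paraspeckles, spanned 1678 to 2129 (median 1993) in the 20-month brains, against 1162 to 1576 (median 1421) in the 3-month brains with no overlap (log2 0.49, SE 0.10, limma adjusted p = 0.00882), while its neighbour Malat1, at 17535 ± 2103 at 20 months and 19889.6 ± 2346.3 at 3 months (SD, n = 7 each), was not called (log2 -0.18, SE 0.12, limma adjusted p = 0.676).

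Immediate early genes had 0 of 23 called by limma, and 16 lower and 0 higher at unadjusted p under 0.05, where 3.96% of all genes were lower. The median log2 difference was -0.46. edgeR called 0 of them and DESeq2 1, Arl4d (DESeq2 adjusted p = 0.023). Some limma fits did call members: Fos with only the 2 ages fitted (limma adjusted p = 0.0458), and Fos and Fosb without 20-month replicate 5 (limma adjusted p = 0.00722 and 0.00535) or without 3-month replicate 2 (0.0456 for both). Fos, a subunit of the AP-1 factor, spanned 329 to 1074 (median 428) in the 20-month brains, against 647 to 1252 (median 939.7) in the 3-month brains (log2 -0.90, SE 0.22, limma adjusted p = 0.0568), and its relative Fosb 178 to 443 (median 252) in the 20-month brains, against 281 to 446 (median 394) in the 3-month brains (log2 -0.62, SE 0.15, limma adjusted p = 0.0662). In both, 6 of the 7 old brains lay below every young one, and replicate 5 stood among the young values. Arl4d, a small GTPase, spanned 69.5 to 121 (median 96.3) in the 20-month brains, against 103 to 212 (median 151) in the 3-month brains (log2 -0.62, SE 0.16, limma adjusted p = 0.0925). By age, Fos averaged 956 at 3, 546 at 5, 594 at 8, 680 at 14, 538 at 20 and 478 at 26 months. Fosb averaged 379, 270, 321, 291, 256 and 272 at the same ages, and Arl4d 149, 112, 109, 95.3, 95.1 and 86.4. In each the 3-month mean was the highest of all ages. By the median deviation of the 23 genes from the 3-month mean, the old replicates lay between -1.02 (replicate 7) and -0.36 (replicate 2) except replicate 5 at 0.23, against -0.18 to 0.28 in young brains. The labels give no time of death or handling, and what these contributed was not tested.

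The cyclic AMP response element, TGACGTCA, is shown in the promoters of Dio2 (chr12:90738989-90739288, minus strand) and Arl4d (chr11:101665291-101665590, plus strand), since this element is a known switch of many immediate early genes. It was found in 1.79% of all windows, in Dio2 among the 16 named called genes with a window, and in Arl4d, Btg2 and Dusp1 among the 19 of 23 immediate early genes with one. By window this was 1 of 18 for the called genes (5.56%) and 3 of 30 for the immediate early genes (10%). The ISRE letters matched 4 of the same 30 (13.3%), in Bdnf, Egr4, Fosl2 and Homer1. The letters TGACGTCA read the same on both strands, and capitals mark them.
Dio2: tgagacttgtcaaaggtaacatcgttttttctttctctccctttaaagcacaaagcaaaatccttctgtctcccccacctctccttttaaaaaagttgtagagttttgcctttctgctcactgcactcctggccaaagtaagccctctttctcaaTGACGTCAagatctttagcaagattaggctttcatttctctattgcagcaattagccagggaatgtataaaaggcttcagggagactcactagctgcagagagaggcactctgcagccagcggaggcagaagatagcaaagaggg
Arl4d: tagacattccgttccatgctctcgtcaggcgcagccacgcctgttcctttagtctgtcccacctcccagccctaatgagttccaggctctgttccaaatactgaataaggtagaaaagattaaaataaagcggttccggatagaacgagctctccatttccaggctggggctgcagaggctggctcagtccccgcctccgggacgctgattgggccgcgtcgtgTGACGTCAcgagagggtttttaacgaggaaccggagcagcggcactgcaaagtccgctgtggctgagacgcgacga

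Of the other neuronal lists, glutamate receptor genes had 0 of 24 called and a median of -0.03, GABA genes 0 of 17 and 0.02, and pan-neuronal genes 0 of 14 and -0.07. Neuropeptide genes had 0 of 21 called and a median of -0.15, with 13 negative differences. At unadjusted p under 0.05, 3 were lower (Crh, Penk and Cck) and 1 higher (Pomc), where 3.96% of all genes were lower and 5.42% higher. Pomc ran from 5.62 to 938 at 20 months, with replicate 7 highest and the next library at 149, against 0 to 52.7 at 3 months. Replicate 7 is among the old brains with high pituitary hormone genes, given below. Penk, the enkephalin precursor, spanned 855 to 1160.0 (median 916) in the 20-month brains, against 985 to 1373 (median 1105) in the 3-month brains (log2 -0.30, SE 0.15, limma adjusted p = 0.517). Grin1, the shared subunit of NMDA receptors, spanned 1106 to 1469 (median 1193) in the 20-month brains, against 762 to 1339 (median 1089) in the 3-month brains (log2 0.22, SE 0.11, limma adjusted p = 0.524). Endoplasmic reticulum chaperone genes had 0 of 16 called and 6 lower and 0 higher at unadjusted p under 0.05; all 16 differences were negative (median -0.18), and young replicate 6, at -0.27, lay inside the range of the old brains, -0.29 to -0.03. Calr, the chaperone calreticulin, spanned 3014 to 5077 (median 3827) in the 20-month brains, against 3810.2 to 6158 (median 4914) in the 3-month brains (log2 -0.34, SE 0.12, limma adjusted p = 0.263). Heat shock genes had 0 of 13 called and 3 lower (median -0.18), among them Hsph1, a chaperone partner of HSP70 (log2 -0.31, SE 0.08, limma adjusted p = 0.0743). Respiratory chain (median 0.05 over 22), ribosomal protein (0.01 over 20), cholesterol synthesis (-0.02 over 18), circadian clock (0.02 over 16) and p53 and senescence genes (0.00 over 13) each had 0 called. Lysosomal genes had 0 of 20 called and 5 higher at unadjusted p under 0.05, with Npc1, the cholesterol exporter, at 364 to 462 (median 399) in the 20-month brains, against 237 to 385 (median 304) in the 3-month brains (log2 0.39, SE 0.13, limma adjusted p = 0.24).

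**Figure D2:**
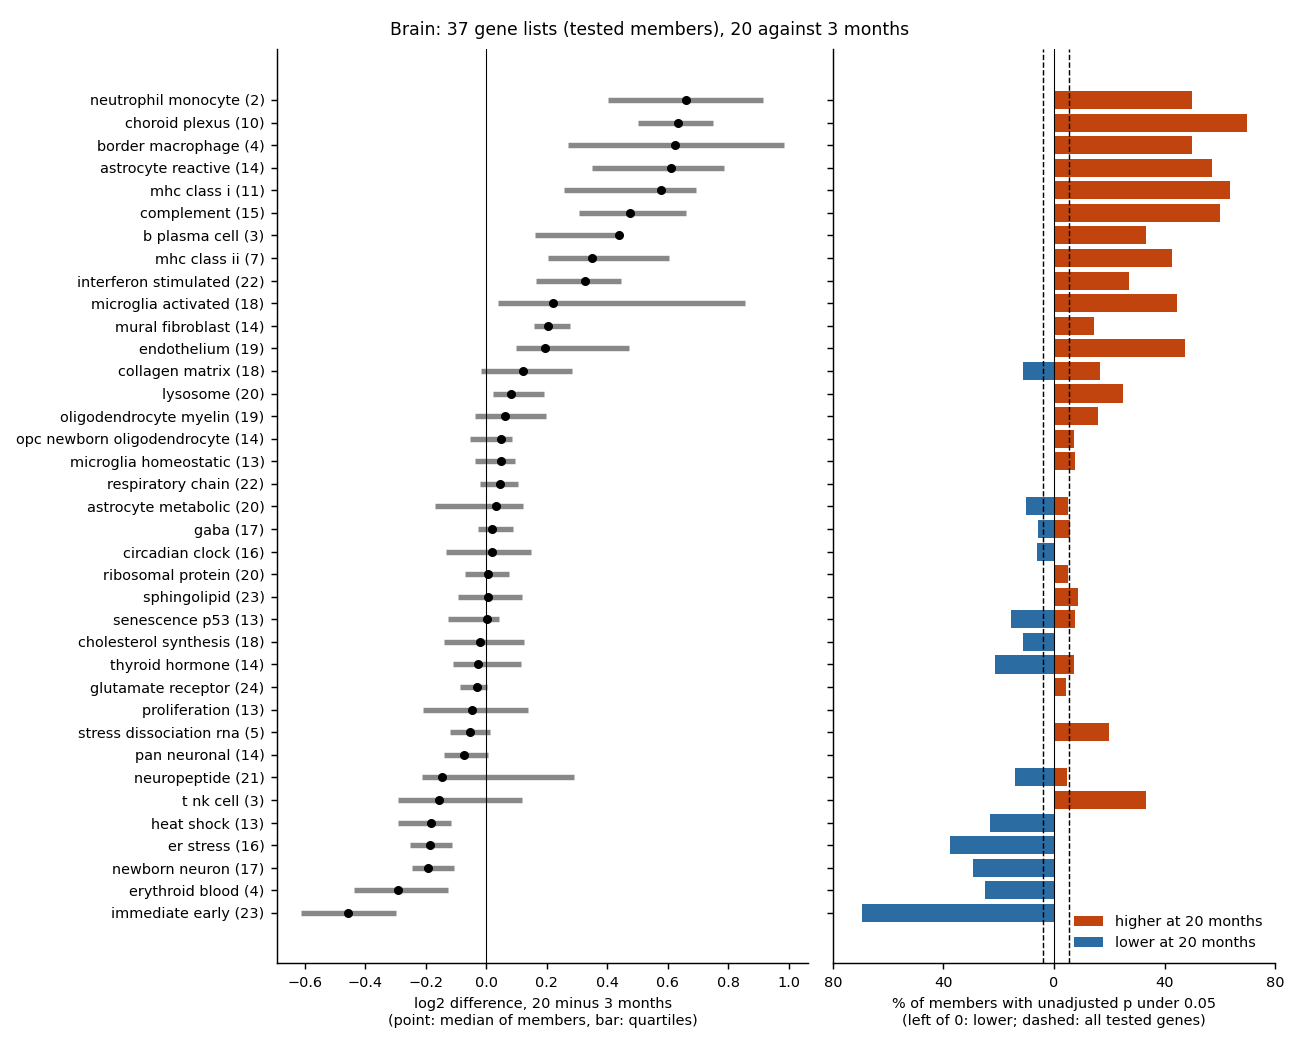
For 37 gene lists, with the number of tested members in brackets, the left panel gives the median and quartiles of the log2 difference, 20 minus 3 months, and the right panel the share of members at unadjusted p under 0.05, higher to the right and lower to the left. Dashed lines give the shares over all genes, 5.42% and 3.96%. Among lists of 10 or more members, choroid plexus, reactive astrocyte, class I and complement genes have the highest medians and immediate early genes the lowest.

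Markers of tissue at the brain's edge had no member that passed. Choroid plexus genes, from the epithelium that makes cerebrospinal fluid, had 0 of 10 called by limma and 1 by edgeR, and 7 higher and 0 lower at unadjusted p under 0.05 (median 0.63). Summed over the list's genes, values ran from 4142 to 14526 at 20 months and from 3659 to 5725 at 3 months, with old replicate 4 highest. Ttr, the thyroxine carrier, spanned 1037 to 7241 (median 2723) in the 20-month brains, against 1103 to 2403 (median 1589) in the 3-month brains, and Kl, klotho, 132 to 525 (median 236) in the 20-month brains, against 78.1 to 215 (median 179) in the 3-month brains (log2 0.68, SE 0.31, limma adjusted p = 0.485; log2 0.63, SE 0.25, limma adjusted p = 0.384). Folr1, the folate receptor, was read in all but 1 library of each age at no more than 12.6. Slc4a5, a bicarbonate transporter, spanned 13.4 to 81.3 (median 28.4) in the 20-month brains, against 5.68 to 20.3 (median 13.9) in the 3-month brains (log2 1.24, SE 0.33, limma adjusted p = 0.105), and was the gene edgeR called. Border macrophage genes had 0 of 4 tested called by limma and 1, F13a1, by edgeR, and 2 higher at unadjusted p under 0.05; F13a1, a coagulation factor chain made by them, spanned 14.6 to 43.7 (median 28.1) in the 20-month brains, against 5.21 to 18.9 (median 14.6) in the 3-month brains (log2 1.07, SE 0.25, limma adjusted p = 0.0508), and their mannose receptor Mrc1 21.4 to 56.2 (median 43.5) in the 20-month brains, against 8.11 to 29.7 (median 24.0) in the 3-month brains (log2 0.96, SE 0.26, limma adjusted p = 0.12). The part of choroid plexus, borders and blood in the differences above was not tested.

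Pituitary hormone genes, chosen for naming after their values were seen, were high in old replicates 2 and 7. Gh had 695 and 548 there and Prl 159 and 275, against at most 39.9 and 7.67 in young brains. Without both replicates 10 genes were called in place of 27, C4b, Abca8a, Etnppl, Vwf, Acer2, Hapln2, Gpnmb and Neat1 among them, and all 27 kept their direction. That fit held fewer old brains, and leaving out replicate 2 or replicate 3 alone gave 18 called genes. The part of pituitary tissue in the lower count was not tested.

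On the lists of white blood cells, 0 genes were called, and few of their members held enough reads to be tested. Among defining markers, Cd3e and Cd3d reached no more than 1.17 at 20 months and 0.811 at 3 months, and S100a8 reached 4.14 and 2.01. Ms4a1 of B cells is listed at 0 in every brain library, as Gfap is, so it gives no information. Other members held more reads, and 3 were higher at unadjusted p under 0.05: Ccr2, a chemokine receptor of monocytes, Ighm, the heavy chain of immunoglobulin M, and Gzmk, a granzyme of T cells. Ccr2 spanned 9.44 to 20.3 (median 11.7) in the 20-month brains, against 1.00 to 11.1 (median 4.79) in the 3-month brains (log2 1.17, SE 0.42, limma adjusted p = 0.331). Ighm spanned 41.6 to 109 (median 70.8) in the 20-month brains, against 33.0 to 73.4 (median 50.5) in the 3-month brains (log2 0.44, SE 0.21, limma adjusted p = 0.504). Gzmk spanned 33.2 to 53.2 (median 47.6) in the 20-month brains, against 26.0 to 59.0 (median 31.5) in the 3-month brains (log2 0.39, SE 0.19, limma adjusted p = 0.517). In all 3 the age groups overlapped. Gzmk held 26.0 or more in every brain of both ages, where Cd3e and Cd3d reached no more than 1.17. Which cells made it was not tested. Of the neutrophil and monocyte list 2 of 11 genes were tested, Ccr2 and Csf3r (log2 0.15, limma adjusted p = 0.827), and of the T and natural killer cell list 3 of 15 and of the B and plasma cell list 3 of 12. Beside Gzmk, the other 2 tested T and natural killer cell genes, Cd4 and Trbc2, had negative differences (list median -0.16). On the B and plasma cell list 2 differences were positive and 1 negative (median 0.44). Over their lists, values summed to 84.3 to 153 at 20 months and 72.9 to 161 at 3 months for T and natural killer cells, 325 to 548 at 20 months and 336 to 529 at 3 months for B and plasma cells, the largest part of it Xbp1, which other cells make too, and 38.5 to 116 at 20 months and 30.8 to 61.3 at 3 months for neutrophils and monocytes. The part of these cells in the differences above was not tested. Of the red cell list, with 0 of 4 called, Hbb-bs spanned 5.85 to 33.2 (median 17.0) in the 20-month brains, against 5.68 to 33.0 (median 14.4) in the 3-month brains. Alas2 is listed at 0 in every brain library and gives no information either.

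**Figure D3:**
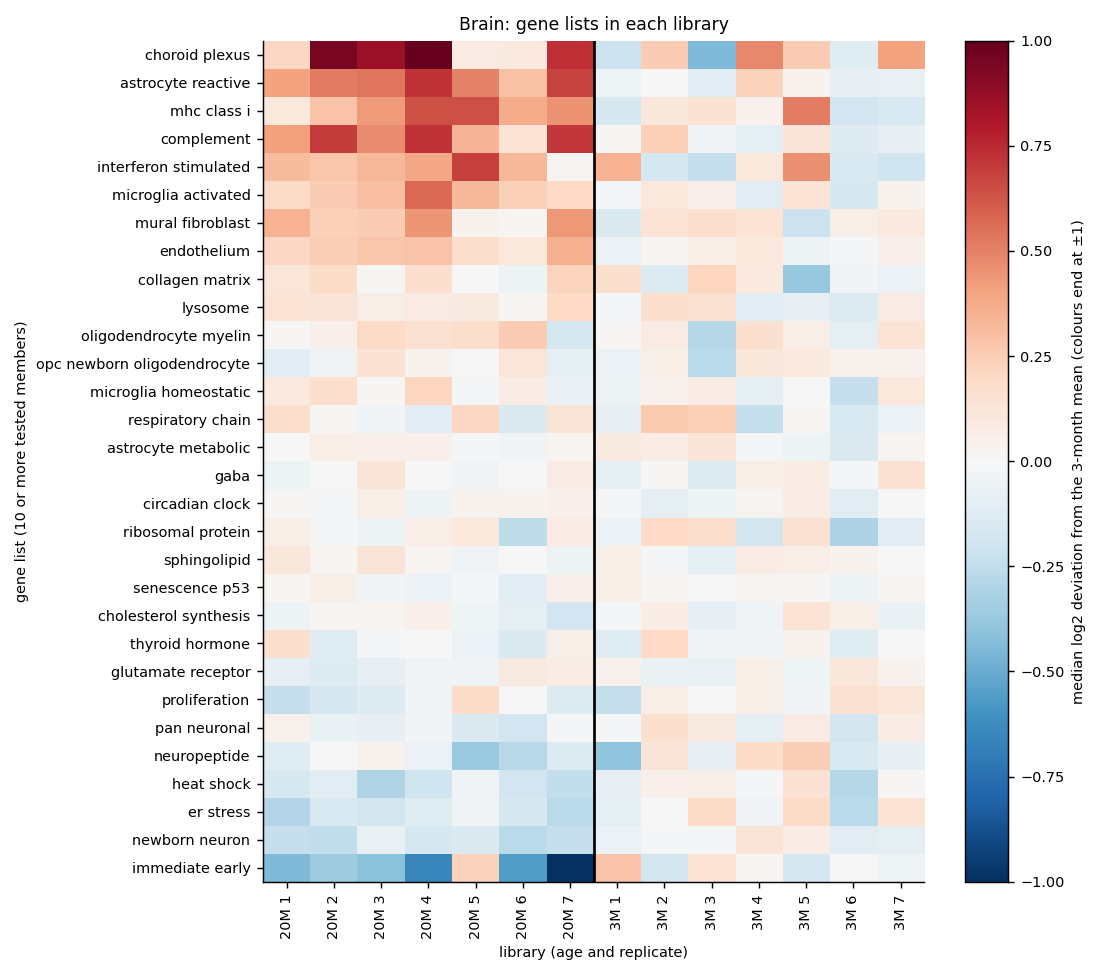
Rows are lists with 10 or more tested members and columns the 14 libraries, 20 months to the left of the line and 3 months to the right. Colour gives the median over the members of the log2 deviation from the 3-month mean, with the scale ending at ±1. Choroid plexus genes are highest in 20M replicate 4, and immediate early genes lie below the 3-month mean in the 20-month brains except replicate 5.

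5 called genes are pseudogenes or clone-named and were outside the naming rule, chosen after their values were seen. All 5 were higher: Nlrp5-ps (log2 1.61, SE 0.26, limma adjusted p = 0.000344), A530053G22Rik (log2 2.099, SE 0.42, limma adjusted p = 0.0093), 9330111N05Rik (log2 0.87, SE 0.17, limma adjusted p = 0.00882), Gm37013 (log2 0.53, SE 0.11, limma adjusted p = 0.0109) and G630018N14Rik (log2 1.93, SE 0.43, limma adjusted p = 0.0343). G630018N14Rik had few reads, at 4.14 to 22.2 in the 20-month brains, against 0 to 4.06 in the 3-month brains. Its mean was 10.8 at 8 months and 10.9 at 20 months, and it kept its call in 7 of the 14 fits without 1 library. In the annotation Gm37013 spans the protocadherin cluster on its own strand, so its reads may be theirs, and 9330111N05Rik overlaps Adgrv1 on the opposite strand; no source used here says whether counting used strand. Just past the threshold stood B3galt5, a galactosyltransferase (log2 0.36, SE 0.08, limma adjusted p = 0.0508), and AU020206 (log2 0.66, SE 0.16, limma adjusted p = 0.0556) and the ADP-ribosyltransferase Parp12 (log2 0.41, SE 0.10, limma adjusted p = 0.0556), all higher, and Hipk4, a protein kinase (log2 -0.34, SE 0.08, limma adjusted p = 0.0508), and Rgs2, a brake on G protein signalling (log2 -0.41, SE 0.10, limma adjusted p = 0.0519), both lower. In B3galt5, Hipk4 and Rgs2 the groups did not overlap.

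Some calls changed when single libraries were left out. Of the 27, 18 to 25 kept their call when any 1 of the 14 libraries was left out, and all 27 kept their direction each time. C4b, Abca8a, Etnppl, Vwf, Acer2, Hapln2, Lyz2, Nrep, Gpnmb, A2m and Neat1 kept theirs in all 14 fits. H2-D1 kept it in 12, losing it without 3-month replicate 1 or 6, Ifitm3 and Cxcl12 in 10 each, Podxl in 8, Dio2 in 7, Flnc, Apod and Vim in 5, and Ddx60 and Ahnak in 4. The highest adjusted p in these limma fits was 0.195. The count of called genes fell to 19 without 3-month replicate 1 and was 18 without 20-month replicate 2 or 3. It was 43 without 20-month replicate 5, the brain with immediate early genes near the 3-month level.

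The same genes were then read in brains that entered neither group, 26 months against the mean of 5 and 8 months, with a spread estimated in the same fit. There 69 genes passed, 0.443% of 15566, and among them were 17 of the 27, or 14 of the 22 named, all in the same direction. All 22 differences had the same sign. C4b differed by 2.42 (limma adjusted p = 1.36e-12), Neat1 by 0.78 (2.88e-07) and Nrep by -0.48 (0.0134). Etnppl (0.24, limma adjusted p = 0.715), Vwf (0.60, 0.29), Acer2 (0.49, 0.228), Ifitm3, Cxcl12, Dio2, Podxl and Ahnak did not pass there. Whether the 2 differences are unequal was not tested for any gene. Immediate early genes had 0 of 23 called in that comparison and a median of -0.26.

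**Figure D4:**
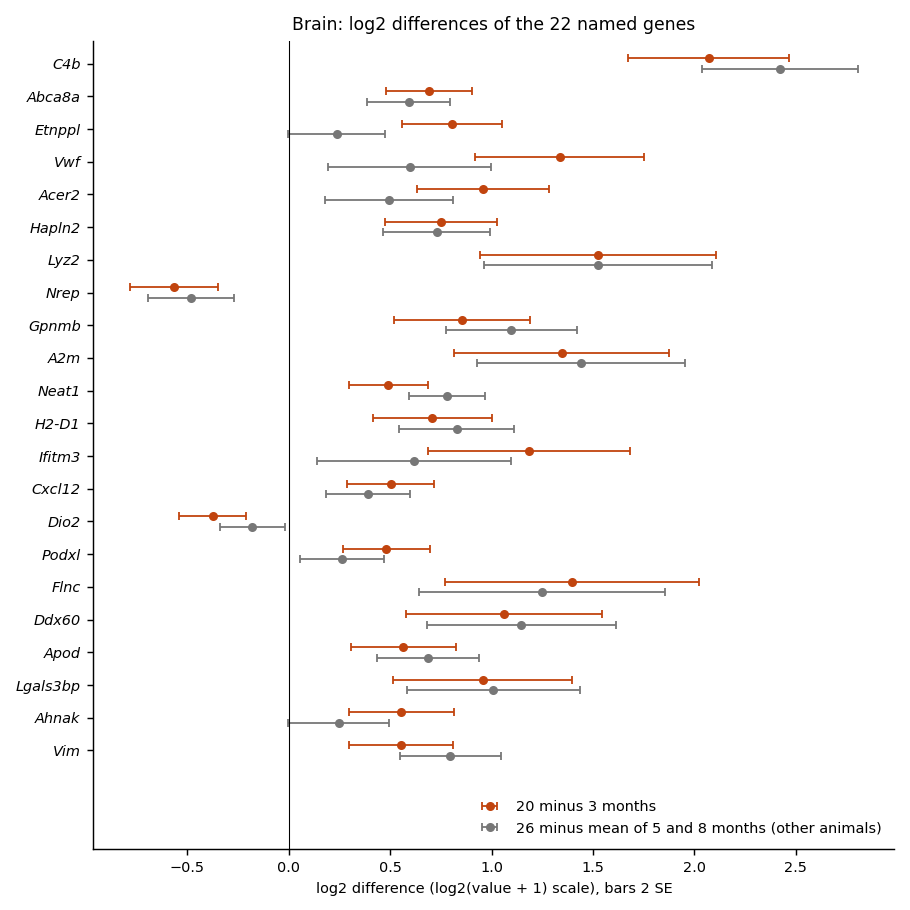
For the 22 named genes, points give the log2 difference and bars 2 SE, with 20 minus 3 months above and 26 months minus the mean of 5 and 8 months below. The points of all 22 pairs lie on the same side of 0. The lower bars of Etnppl and Ahnak reach just across 0, and that of Dio2 ends close to it.

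Over the ages, C4b averaged 69.2 at 3, 82.0 at 5, 112 at 8, 136 at 14, 294 at 20 and 519.8 at 26 months, and Vwf 54.3 at 3, 79.1 at 5, 78.5 at 8, 90.4 at 14, 146 at 20 and 121 at 26 months. Etnppl averaged 339 at 3, 350.0 at 5, 423 at 8, 401 at 14, 604 at 20 and 451 at 26 months. Nrep averaged 1524 at 3, 1501 at 5, 1334 at 8, 1266 at 14, 1026 at 20 and 1007 at 26 months, and Dio2 619.9 at 3, 571 at 5, 598 at 8, 537 at 14, 479 at 20 and 513 at 26 months. In Vwf, Etnppl and Acer2 the mean at 20 months was the highest of the 6, and in C4b and Abca8a that at 26 months. Against 14 months only C4b passed at 20 months (0.00642% of genes; log2 1.15, SE 0.19, limma adjusted p = 0.00269). The other 21 named genes differed in the same direction at unadjusted p under 0.05, but that comparison shares the 20-month brains.

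**Figure D5:**
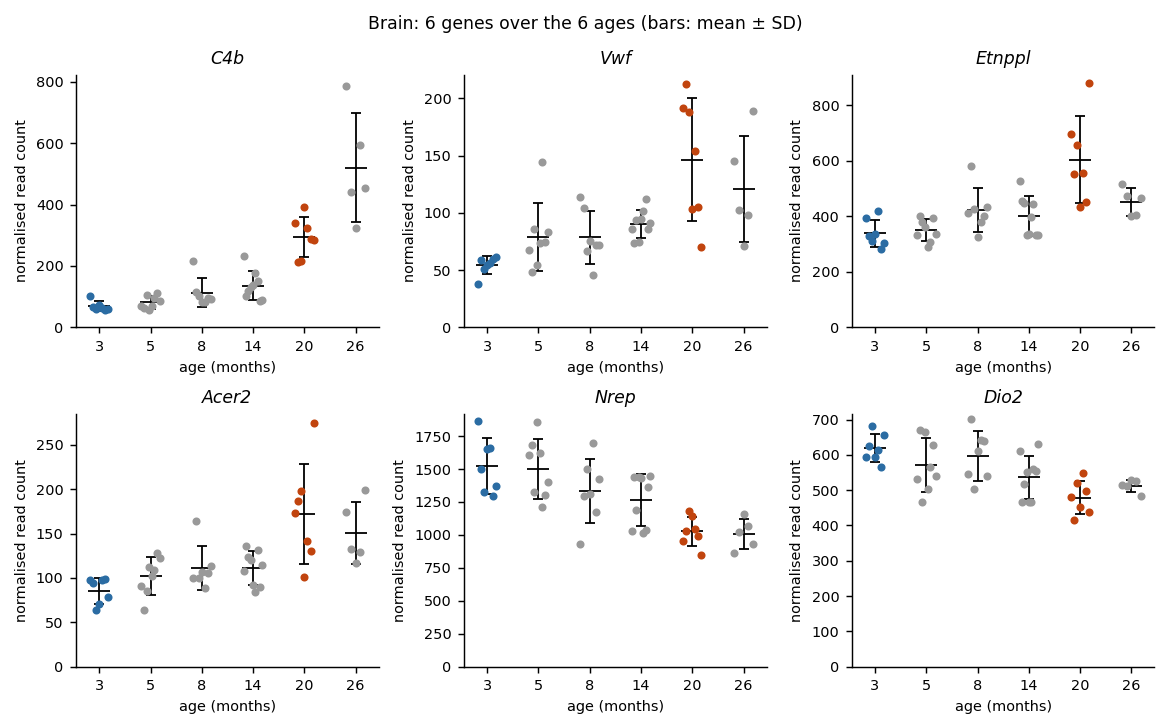
Normalised read counts of C4b, Vwf, Etnppl, Acer2, Nrep and Dio2 in every brain sample by age, from 3 to 26 months, with the mean and SD. The 20-month brains are in red-brown and the 3-month brains in blue. C4b is highest at 26 months and Vwf, Etnppl and Acer2 have their highest mean at 20 months.

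The spleens of the same mice, in a table scaled separately and therefore only set beside the brain, had 1733 of 16243 genes called at 20 against 3 months (10.7%). Of the 22 named brain genes 20 were tested there. Vwf, Acer2, Abca8a and Podxl were called higher in spleen too (log2 1.29, 1.42, 1.34 and 0.92; limma adjusted p = 0.0351, 0.00261, 0.004 and 0.0192). Dio2, lower in old brain, was higher in old spleen, at few reads, 9.14 ± 4.91 at 20 months and 1.81 ± 1.48 at 3 months (SD, n = 7 each; log2 1.87, limma adjusted p = 0.015). C4b did not pass in spleen (log2 0.76, SE 0.35, limma adjusted p = 0.163).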

How the data were processed

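Tissue was frozen and total RNA taken with TRI-Reagent, and libraries came from a TruSeq RNA kit, per the labels' protocols. The submitters' processing notes name a demultiplexer (bcl2fastq 2.20), read trimming by cutadapt, the aligner HISAT2 2.1.0 with SAMtools, the build GRCm38, and DESeq2 under R 3.5.1. The read counter and its annotation are not given in the sources used here. The deposited signal values are counts of reads, scaled by the authors with 1 factor for each library, and whole reads were recovered for 100% of values, to within 0.01 of a read. Mitochondrially encoded genes had 0 reads.

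Under R 4.3.3, limma 3.58.1 was fitted to log2(value + 1) over all 6 ages, its prior following the trend of variance with level. 2 pairs of brain libraries, at 5 and at 8 months, differed by less than sampling noise and were averaged, leaving 43 samples. The p-values are 2-sided. edgeR 4.0.16 and DESeq2 1.42.0 on the recovered reads were alternatives, with other pseudocounts (0.5 and 5), filters, TMM scaling, separate libraries, only the 2 ages, and each library left out. Where nothing says that replicates came from separate litters or days, p-values measure the spread between these animals. The pipeline was tested on simulated data. Positions are from GENCODE M21 and promoters from RefSeq (GRCm38.p6), with 1-based coordinates. Figures used matplotlib 3.10.9 under Python 3.11.15.

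Named are all called genes except predicted genes, clones, immunoglobulin segments and pseudogenes, the 8 next by p, and up to 3 members of each list with the smallest p; not all of the last are printed. The members and the 37 lists were chosen with earlier results of these data known. 1 of the markers checked is not reported here.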

Additional observations from a re-analysis of the deposited data

Results flagged for a closer look

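In 244 groups of 7 libraries, those of the named genes at 20 and at 3 months, 22 had a highest or lowest library set apart from the rest by more than 0.568 of the group's range. Chance does so in about 1 in 20 groups of normally distributed values. The counts were not transformed for this, so the rate for them may differ. In the genes that passed, these were C4b in replicate 1 at 3 months (102, nearest 74.1), A2m in replicate 4 at 3 months (31.5) and Neat1 in replicate 7 at 20 months (1678, the lowest). 20-month replicate 5 was highest for Fos (1074), Fosb (443), Ccnd2 (543), Rps19 (245) and Rps14 (697). 20-month replicate 7 was highest for Mertk (463), Slc2a1 (175) and Pomc (938). Also at 20 months, replicate 3 was highest for Penk (1160.0) and lowest for Meg3 (31141), and replicate 4 highest for Enpp2 (5975). At 3 months replicate 5 was highest for Gap43 (7108), Oas1a (4.79), Oasl2 (40.2), Pomc (52.7), Crh (132) and Hmgcs1 (6461), replicate 7 for Ccnd2 (714) and replicate 3 for Col6a2 (95.5). H2-Q4 stood out for its 2 tissues: every 20-month spleen lay below the 3-month mean (log2 -0.56) and every 20-month brain above it (log2 1.06), and the difference between the tissues was not tested.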

How the results depend on the processing

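With 20 against 3 months in brain, 27 genes were called. The count was 74 under DESeq2, 40 under edgeR, 36 with only the 2 ages in the fit, 33 with every library as its own sample, 32 at a pseudocount of 5, 27 at 0.5 and under TMM scaling, 23 with a filter of 50 and 21 with no filter. All 27 genes were among those called by edgeR and by DESeq2, 23 of them with only the 2 ages (not Gpnmb, Podxl, Ahnak or Vim; adjusted p 0.0857, 0.0815, 0.110 and 0.0651 in limma) and 19 with no filter (not Podxl, Flnc, Ddx60, Apod, Lgals3bp, Ahnak, Vim or G630018N14Rik). Leaving out 1 library gave 18 to 43. Leaving out 20-month replicates 2 and 7 together, chosen after the data were seen, gave 10, from 5 old brains. For 26 against 5 and 8 months, 69 genes were called, 143 under DESeq2, 121 under edgeR and 43 with a filter of 50 (fewer genes tested), and 35 to 68 without 1 library of 26 months. For 20 against 14 months 1 gene was called, 3 under DESeq2, 2 under edgeR and 2 with no filter, and 1 to 2 without 1 library of 20 months. In spleen 1733 were called, 875 with only the 2 ages and 1006 to 2739 without 1 library. The cause of these moves was not tested. Of the genes listed here, 0 reversed direction across a call. No paired analysis was possible because replicate numbers were given in accession order and the labels link no 20-month mouse to a 3-month mouse. Genes with few reads, such as Flnc, Itgax and Oas1a, have the widest errors.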
